A study of Mus musculus with 4 samples.

Results

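Mouse repeat families that RepeatMasker assigns to the class Satellite were followed in total RNA of mouse embryonic fibroblasts (MEFs) to ask how far a rise of satellite RNA with genistein separated the pericentric and centromeric satellites from the dispersed ones. Members were chosen as the repeat entries of the counts table whose class field read Satellite. There were 8 such entries among 1445 repeat entries and 47937 genes. The 5 entries described in depth were GSAT_MM, SYNREP_MM, MMSAT4, ZP3AR and IMPB_01, and these were also the 5 that passed the filter on low counts. The other 3, MurSAT1, CENSAT_MC and the simple satellite (CATTC)n, had at most 4 counts in any library.

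The series held 4 libraries in 2 groups, all from MEFs by their labels. The untreated group had 2 libraries of wild-type MEFs, and the other 2 libraries came from MEFs given 50 µM genistein for 24 h, whose genotype field names the treatment only. Genistein is an isoflavone of soy that acts on tyrosine kinases and on type II DNA topoisomerases. The labels call the control group untreated, which the study's text describes for other assays as cells given the vehicle DMSO, and for the RNA sequencing libraries the vehicle is not stated. Nothing said whether replicates were separate cultures, so the p-values measure the spread between these libraries, which may be technical. Of 8 fibroblast markers, 7 were counted in every library at 1592 to 182710 normalised counts, and Thy1 was at 0. Among 6 markers of epithelial, blood and endothelial cells, Cd68 went from 83.9 and 65.6 normalised counts to 211 and 213, and the other 5 stayed at or under 9.11. The part of such cells in the satellite values was not tested.

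Satellites are tandem repeats, in which copies of one short unit follow each other head to tail over long arrays. In the mouse, the major satellite fills the pericentric heterochromatin beside each centromere, where Suv39h enzymes methylate histone H3 and HP1 proteins bind that mark. The minor satellite lies at the centromere itself, carries the binding motif of CENP-B and is the site at which nucleosomes with the histone variant CENP-A and the kinetochore assemble. GSAT_MM is the entry of the major satellite and SYNREP_MM was taken as that of the minor satellite. MMSAT4, ZP3AR and IMPB_01 were taken as the dispersed entries, that is, families whose copies lie outside these arrays. Copy positions were not analysed here, so this division was assumed in advance and not measured. The family and class fields read Satellite for all of these entries and do not give it.

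The unit that GSAT_MM counts can be read in annotated genes that consist of it. A 234-base period was found in an exon of the predicted gene Gm10717, which lies in the satellite array at the start of chromosome 9. Among the candidate exons it had the most 12-base stretches repeated at this period (169). That choice favours units that are alike, so they are not a typical pair. Of its consecutive units, 2 are printed. A stretch of an exon of Gm10800 on chromosome 2 is added because that gene had the highest count among the genes of satellite sequence. All are from GENCODE M21 transcripts on GRCm38 (mm10) and are written 5′ to 3′ on the transcribed strand. They are Gm10717 unit 1 at chr9:3032155-3032388 (+), Gm10717 unit 2 at chr9:3032389-3032622 (+) and Gm10800 at chr2:98666747-98666980 (−). Capitals mark the 16 positions that were not the same in all 3.
Gm10717 unit 1: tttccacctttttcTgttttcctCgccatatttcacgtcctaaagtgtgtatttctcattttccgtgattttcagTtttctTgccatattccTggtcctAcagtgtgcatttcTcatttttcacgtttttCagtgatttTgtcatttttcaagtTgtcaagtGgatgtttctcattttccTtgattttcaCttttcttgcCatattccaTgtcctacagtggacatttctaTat
Gm10717 unit 2: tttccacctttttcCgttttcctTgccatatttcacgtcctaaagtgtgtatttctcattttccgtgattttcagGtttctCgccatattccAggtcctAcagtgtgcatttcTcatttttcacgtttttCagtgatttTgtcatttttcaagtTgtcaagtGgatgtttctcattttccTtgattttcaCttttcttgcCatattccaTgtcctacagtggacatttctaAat
Gm10800: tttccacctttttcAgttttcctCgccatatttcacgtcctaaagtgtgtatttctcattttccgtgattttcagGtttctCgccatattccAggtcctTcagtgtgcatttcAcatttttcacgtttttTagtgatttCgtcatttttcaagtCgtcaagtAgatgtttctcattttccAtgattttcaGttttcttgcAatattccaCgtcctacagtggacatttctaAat
Unit 2 differed from unit 1 at 6 of 234 bases (97.4% identity), and the chromosome 2 copy differed from it at 15 (93.6% identity). The units were A/T-rich at 64.5%, 63.7% and 63.7%, against a median of 50.8% over all annotated transcripts. This strand is pyrimidine-rich, with purines at 29.5% to 32.5% of bases. A core pattern of the CENP-B box, the motif named above, was searched on both strands of 141767 annotated transcripts. It was found in 331 of them (0.233%) and in none of the 29 transcripts of the satellite genes. At so low a share, 29 transcripts would rarely hold it, so its absence cannot tell these genes from other transcripts.

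The major satellite rose far above the untreated spread with genistein. GSAT_MM had raw counts of 113 and 117 without genistein and of 2190 and 1414 with it. After scaling to a common library size the counts were 113 and 124 (118 ± 7.77, SD, n = 2) and 2054 and 1431 (1742 ± 440, SD, n = 2). The lower genistein library stood 11.6-fold above the higher untreated one, and the groups did not overlap. The fitted log2 fold change was 3.88 ± 0.39 (SE), a 14.8-fold rise (adjusted p = 0.0119, edgeR quasi-likelihood, Benjamini-Hochberg). That p depended on single libraries. Without untreated replicate 1 the log2 fold change was 3.81 (adjusted p = 0.143, edgeR), and without untreated replicate 2 it was 3.95 (adjusted p = 0.135, edgeR), so the call was lost although the value hardly moved. The size of p also differed between methods, at log2 fold changes close to 3.88. It was far smaller with DESeq2 (3.87, adjusted p = 7.03e-40, DESeq2) and with a replicate block (3.88, adjusted p = 6.90e-18, edgeR). Other scalings of genes and repeats together gave an adjusted p of 0.00970 to 0.0117 (edgeR), and no filter on low counts gave 0.0227 (edgeR). Estimating edgeR's spread without its robust option was an alternative chosen after seeing the data. The adjusted p was then 2.87e-12 (edgeR) at a log2 fold change of 3.88.

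SYNREP_MM, taken as the minor satellite, rose as well, from a lower count and by a smaller factor. The study's text reports no significant rise of minor satellite reads in its sequencing, and does not name the entry used. SYNREP_MM had raw counts of 55 and 46 without genistein and of 190 and 153 with it. Its normalised counts were 54.9 and 48.7 (51.8 ± 4.41, SD, n = 2) and 178 and 155 (167 ± 16.5, SD, n = 2). All genistein values lay above all untreated values, with 2.82-fold between the nearest. The log2 fold change was 1.68 ± 0.16 (SE), or 3.21-fold (adjusted p = 3.97e-12, edgeR quasi-likelihood, Benjamini-Hochberg), and it lay between 1.58 and 1.78 when any one library was left out.

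The 3 dispersed entries rose less than SYNREP_MM in the fit of genes and repeats together. When repeats were fitted alone none of the 3 was higher (log2 fold changes of -0.0067 for IMPB_01, -0.25 for ZP3AR and -0.42 for MMSAT4). IMPB_01 stood at 2938 and 2958 normalised counts without genistein (2948 ± 14.2, SD, n = 2) and at 4895 and 4633 with it (4764 ± 185, SD, n = 2). Its log2 fold change was 0.69 ± 0.036 (SE), or 1.62-fold (adjusted p = 1.66e-19, edgeR). ZP3AR, an entry with fewer reads, had 1094 and 1044 (1069 ± 35.3, SD, n = 2) against 1525 and 1393 (1459 ± 93.3, SD, n = 2). This was a log2 fold change of 0.45 ± 0.053 (SE), or 1.37-fold (adjusted p = 1.37e-09, edgeR). MMSAT4, the entry with the most untreated reads of the 5, moved least. It had 3939 and 3767 (3853 ± 122, SD, n = 2) against 4613 and 4729 (4671 ± 81.6, SD, n = 2). Its log2 fold change was 0.28 ± 0.035 (SE), or 1.21-fold (adjusted p = 4.88e-09, edgeR). In all 3 entries the groups stood apart, with 1.57-, 1.27- and 1.17-fold between the nearest libraries in the order named.

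**Figure D1:**
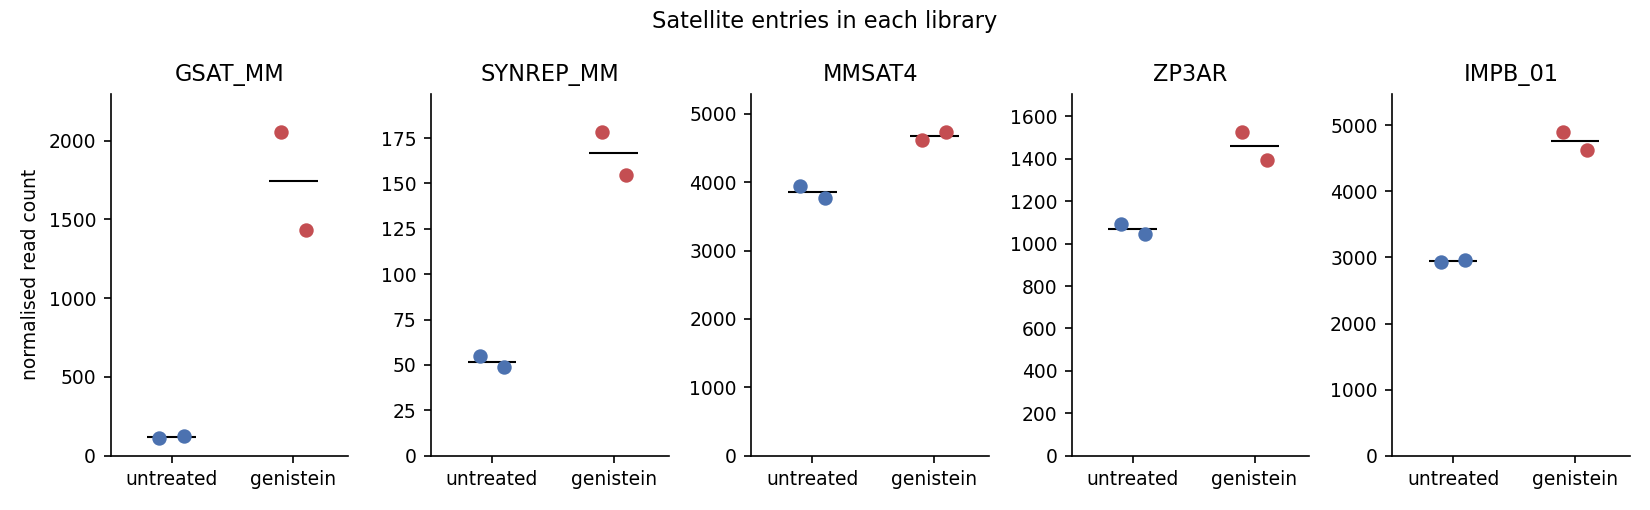
Normalised read counts (y axis, from 0, a separate scale for each entry) of the 5 Satellite entries in the 2 untreated and 2 genistein libraries; each point is 1 library, replicate 1 left of replicate 2, and each line is the mean of a group. The groups do not overlap in any panel, and the gap is widest for GSAT_MM (14.8-fold) and narrowest for MMSAT4 (1.21-fold).

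All 5 Satellite entries therefore passed as higher, but most repeats did. Of 1118 repeats tested, 76.5% were higher at an adjusted p under 0.05 (edgeR), and of all genes and repeats 36.5% were. In 83.8% of the repeats both genistein libraries lay above both untreated ones. An exact permutation test of 2 libraries against 2 cannot give a two-sided p under 0.333, and each of the 5 entries had that value. The stricter rule, which required, beyond the adjusted p, a log2 fold change above 1 and a normalised count averaging above 100, was met by GSAT_MM and SYNREP_MM alone among the Satellite entries. It was met upward by 3.58% of repeats and by 3.90% of all genes and repeats. SYNREP_MM met it with group means of 51.8 and 167 normalised counts, on either side of the count bound. With repeats fitted alone its log2 fold change was 0.98, under the bound of 1.

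Set against the other repeats, the 5 entries fell on both sides of the bulk. The median log2 fold change of all 1118 repeats was 0.69, with quartiles of 0.46 and 0.87, and that of the 16240 genes tested was -0.03. GSAT_MM ranked 2 and SYNREP_MM 23 by log2 fold change among the repeats. IMPB_01 lay at the median, with 51.2% of repeats changing less. ZP3AR ranked 857 and MMSAT4 946, both under the lower quartile, with 23.3% and 15.4% of repeats changing less.

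The position of each entry relative to the bulk was then read from a fit of the repeats alone, in which libraries are scaled on repeat counts and a change of 0 means a change like that of most repeats. There GSAT_MM remained higher at a log2 fold change of 3.18 ± 0.35 (SE; adjusted p = 0.0359, edgeR quasi-likelihood, Benjamini-Hochberg). SYNREP_MM was also higher, at 0.98 ± 0.16 (SE; adjusted p = 1.55e-07, edgeR). IMPB_01 differed by -0.0067 ± 0.036 (SE; adjusted p = 0.912, edgeR), and was not told apart from the bulk. ZP3AR and MMSAT4 turned in direction and were lower, at -0.25 ± 0.050 (SE; adjusted p = 0.000194, edgeR) and -0.42 ± 0.065 (SE; adjusted p = 0.00375, edgeR). Among the 1103 repeats of that fit 10.2% were higher and 17.8% were lower. This fit lowers all repeats by about the same amount, so that it restates each entry's distance from the bulk and adds no separate evidence.

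**Figure D2:**
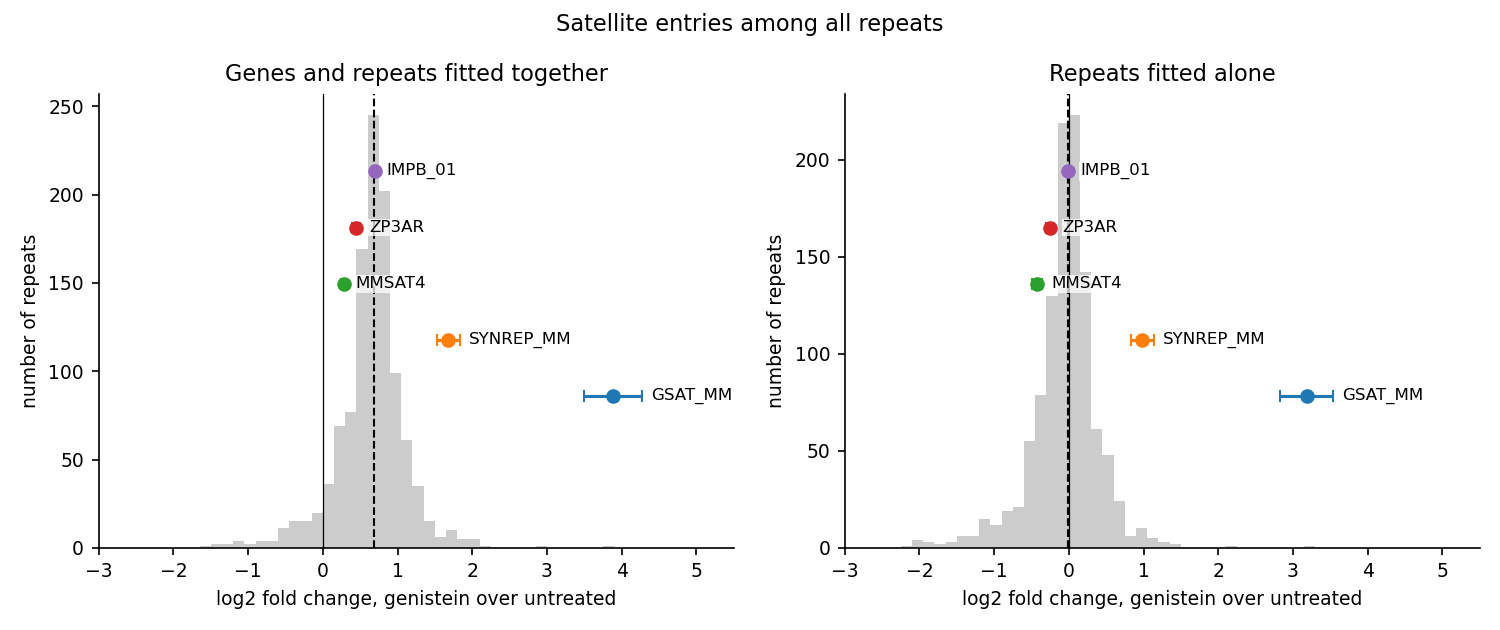
Log2 fold change of genistein over untreated (x axis) for all repeats tested, as a histogram (y axis, number of repeats), with the 5 Satellite entries as points with bars of 1 SE, their height chosen for legibility; left, genes and repeats fitted together, right, repeats fitted alone. The dashed line is the median of the repeats, 0.69 on the left and -0.012 on the right; GSAT_MM and SYNREP_MM lie right of the bulk in both panels, IMPB_01 on the median and ZP3AR and MMSAT4 left of it.

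Whether the entries differed from each other was tested on their ratios within each library, in which the scaling of the libraries cancels. The log2 ratio of SYNREP_MM to GSAT_MM was -1.03 and -1.34 without genistein and -3.52 and -3.20 with it. SYNREP_MM thus rose less than GSAT_MM, by -2.18 on the log2 scale (95% interval -2.86 to -1.50, limma), a 4.53-fold gap. IMPB_01 went from 4.70 and 4.57 to 1.25 and 1.69 relative to GSAT_MM, a difference of -3.16 (-3.89 to -2.43). ZP3AR went from 3.27 and 3.07 to -0.43 and -0.039, a difference of -3.40 (-4.12 to -2.69). MMSAT4 went from 5.12 and 4.92 to 1.17 and 1.72, a difference of -3.57 (-4.31 to -2.84). In none of these ratios did the groups overlap, and the largest adjusted p was 3.71e-10 (limma). A smaller change than that of GSAT_MM was shared by 99.4% of all genes and repeats, so it is not particular to the other satellites.

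Against SYNREP_MM the dispersed entries again rose less. The difference was -0.98 for IMPB_01 (95% interval -1.33 to -0.63, limma), or 1.97-fold. It was -1.23 for ZP3AR (-1.57 to -0.88), or 2.34-fold, and -1.39 for MMSAT4 (-1.75 to -1.04), or 2.63-fold. The largest adjusted p of the 3 was 5.58e-08 (limma). A smaller change than that of SYNREP_MM was found for 91.3% of all genes and repeats. All ratios to one entry share its 4 counts, so limma's pooled spread rests largely on those 4 values and its p-values are too small. With the spread of each ratio taken from its own 4 libraries, an alternative chosen after seeing the data, every interval was still under 0. The upper bounds were then -1.23 for SYNREP_MM and -2.17, -2.46 and -2.30 for IMPB_01, ZP3AR and MMSAT4 against GSAT_MM, and -0.51, -0.95 and -0.84 for the last 3 against SYNREP_MM.

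**Figure D3:**
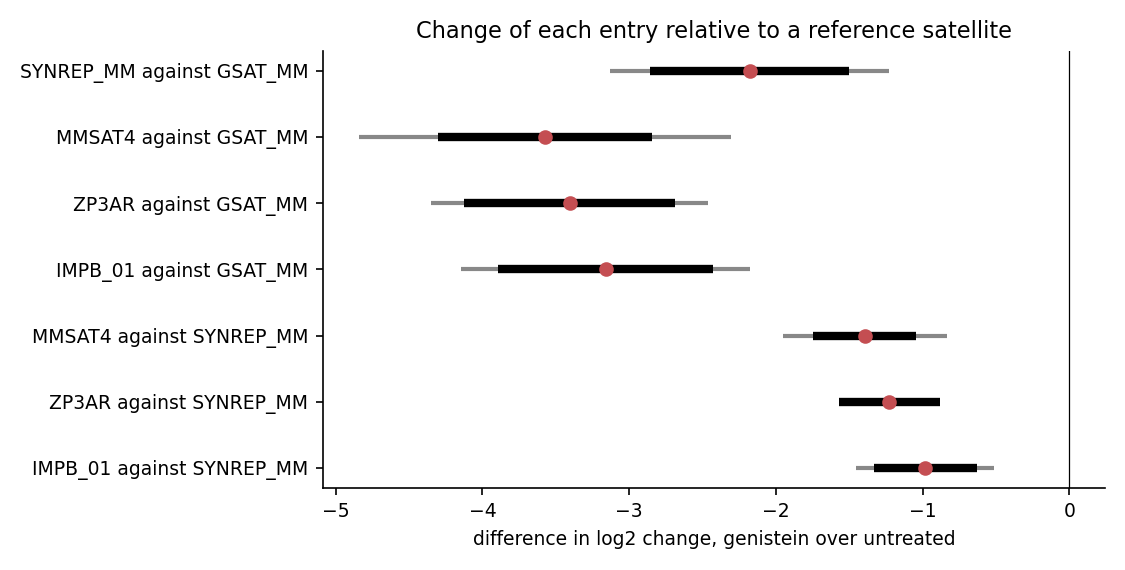
Difference between the log2 change of 1 Satellite entry and that of a reference entry (x axis), for 4 entries against GSAT_MM and 3 against SYNREP_MM; points are the estimates, thick bars the 95% intervals of limma and thin bars those with the spread of each ratio alone. All 7 intervals of both kinds lie under 0, from -0.98 for IMPB_01 against SYNREP_MM to -3.57 for MMSAT4 against GSAT_MM.

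The order of the changes was thus GSAT_MM, SYNREP_MM, IMPB_01, ZP3AR and MMSAT4. The last 3 were also set side by side, without a test. The log2 ratio of IMPB_01 to ZP3AR was 1.43 and 1.50 in untreated and 1.68 and 1.73 in genistein libraries. That of ZP3AR to MMSAT4 was -1.85 in each untreated library and -1.60 and -1.76 with genistein. The groups did not overlap in either ratio, but for ZP3AR to MMSAT4 the genistein libraries lay further from each other than the nearer one lay from the untreated libraries. Levels were not ranked between the entries, because the counts are not per length.

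GSAT_MM had the largest gap between the genistein replicates. Replicate 1 held 1.43 times the GSAT_MM count of replicate 2 after scaling (95% exact binomial interval 1.34 to 1.54, counting error only). The same ratio was 1.15 for SYNREP_MM (0.925 to 1.43), an interval that included 1. It was 1.09 for ZP3AR (1.02 to 1.18), 1.06 for IMPB_01 (1.02 to 1.10) and 0.976 for MMSAT4 (0.937 to 1.02). The gap of GSAT_MM was larger than counting error alone, and the interval of SYNREP_MM overlapped that of GSAT_MM. In the untreated libraries the ratio was 0.911 for GSAT_MM (0.697 to 1.19). Leaving out a genistein library moved the log2 fold change of GSAT_MM to between 3.60 and 4.12.

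Summed over the class, the result depended on the scaling. Satellite reads were 0.0265% and 0.0259% of all counts in the untreated and 0.0450% and 0.0426% in the genistein libraries. The summed normalised counts went from 8139 and 7941 to 13268 and 12342, a log2 ratio of 0.67, and without GSAT_MM the log2 ratio was 0.48. Under this scaling on genes and repeats, IMPB_01 supplied 38.1% of the gain of 4765 counts, GSAT_MM 34.1%, MMSAT4 17.2%, ZP3AR 8.18% and SYNREP_MM 2.41%. With libraries scaled on repeat counts, an alternative added after seeing the data, the sums were 11215 and 10039 against 10649 and 10182, a log2 ratio of -0.029. GSAT_MM then had the largest gain, 1258 counts, SYNREP_MM gained 66.7, IMPB_01 differed by -18.4, ZP3AR by -227 and MMSAT4 by -1292. The share of each entry in the Satellite counts of a library does not depend on the scaling. GSAT_MM went from 1.39% and 1.56% to 15.5% and 11.6%. MMSAT4 went from 48.4% and 47.4% to 34.8% and 38.3%, while IMPB_01 kept to 36.1% to 37.5% in all 4 libraries. In bulk RNA, a rise in every cell and a strong rise in some cells cannot be told apart, and neither can fewer cells and less RNA per cell.

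**Figure D4:**
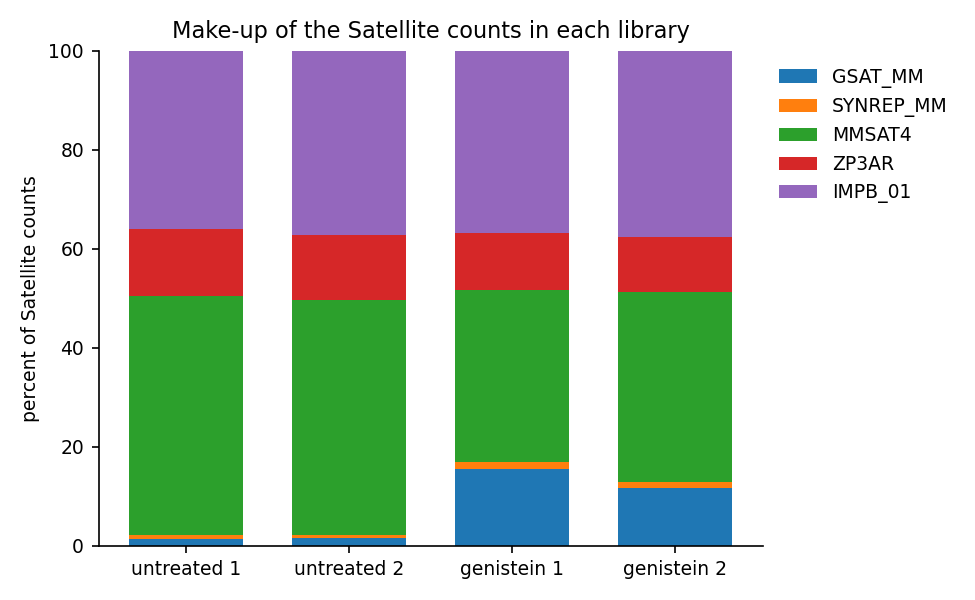
Share of each entry in the counts of the class Satellite (y axis, percent, stacked from 0 to 100) in each of the 4 libraries. GSAT_MM takes 1.39% and 1.56% of the untreated and 15.5% and 11.6% of the genistein bars, and SYNREP_MM stays a thin band.

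The remaining Satellite entries were too low for a test. MurSAT1 had 1 and 0 counts in the untreated and 4 and 1 in the genistein libraries, a scaled ratio of 4.74 with a 95% counting interval of 0.530 to 224. CENSAT_MC, the single entry whose family field read centr, had 0 counts in all 4 libraries. So had (CATTC)n, the unit of a pericentric satellite known from human chromosomes. A count of 0 allows up to 3 counts, or a share of at most 1.05e-05% of a library, so neither was detectable at this depth.

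Genes annotated over major satellite sequence were counted as well. A match of the Gm10717 exon to the annotated transcripts, at 75% identity over at least 90% of the transcript, found 13 genes. Of these, 10 had 0 counts in both untreated libraries and 10, not the same ones, had a count in both genistein libraries. Only 5 of the 13 passed the filter on low counts. The normalised counts of the 13 genes summed to 5.99 and 10.6 in the untreated and 374 and 298 in the genistein libraries. Both untreated sums lay far under both genistein sums. These genes held 5.04% and 7.87% of the untreated and 15.4% and 17.2% of the genistein counts of GSAT_MM and the genes together. With their reads added to GSAT_MM, an alternative chosen after seeing the data, its log2 fold change was 4.04 in place of 3.88. The genes are near-identical copies, so the reads of each one singly are uncertain.

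Gm10800 (chr2:98666547-98667301, − strand), part of whose exon is printed here, was not counted in the untreated group (0 in both) and had 257 and 175 counts with genistein. Against a floor of 3 counts per library this was at least 67.7-fold higher. Its neighbour Gm10801 (chr2:98662237-98664083, + strand) had 5 and 9 counts against 68 and 51, a log2 fold change of 2.99 ± 0.33 (SE). Gm26870, a long noncoding RNA gene (chr9:3000282-3038313, − strand) that overlaps genes of the + strand, had 0 and 1 counts against 18 and 22. These 3 genes were named for their high counts and passed the filter on low counts only through the genistein libraries. A test of them would not be separate support, so no p-value is given. Gm26870 was the single gene of the 13 with a purine-rich transcript strand (68.4% purines), and the other 12 were pyrimidine-rich at 30.1% to 31.7%. In the genistein libraries the pyrimidine-rich genes held 357 and 275 normalised counts and Gm26870 held 16.9 and 22.3. The setting for strand in the counting is not given in the sources used here, so these values do not separate the strands.

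**Figure D5:**
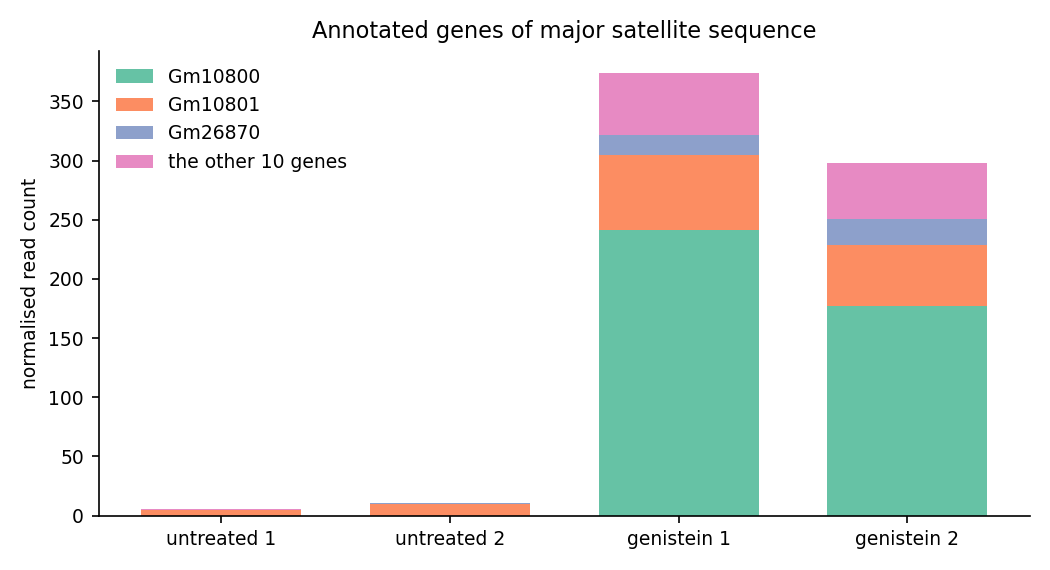
Normalised read counts (y axis, stacked) of the 13 annotated genes of major satellite sequence in each of the 4 libraries. The untreated bars sum to 5.99 and 10.6 and the genistein bars to 374 and 298, most of it Gm10800.

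The entries whose profile over the 4 libraries was most like that of a satellite were genes. Of the 17358 entries tested 16240 were genes, so this is what their share alone would mostly give. Ranks were taken among the 12243 entries with a mean normalised count above 100. They used the Euclidean distance of log2 CPM (counts scaled to library size) centred on each entry's mean. The order thus reflects the size of the change. Nearest to GSAT_MM were Trp53inp1 (distance 0.397), a target of p53, Serpina3n (0.498), which encodes a serine protease inhibitor, and Notch3 (0.514), which encodes a Notch receptor. Their log2 fold changes were 3.89, 3.62 and 4.23, beside 3.88 for GSAT_MM. Nearest to SYNREP_MM were Gm28006 (0.0308), Natd1 (0.0760) and Ptprv (0.0804), with log2 fold changes of 1.65, 1.66 and 1.64, beside 1.68 for SYNREP_MM. GSAT_MM had a gap between the genistein replicates, of which Trp53inp1 showed little, at 10799 and 10882 normalised counts. Why the distances around GSAT_MM were larger was not tested.

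Genes for chromatin, in 2 lists named for the arrays, were read as background. The pericentric list was broad and also held genes with wider roles in chromatin, the nuclear envelope and proliferation. Of the 24 genes in the pericentric list, 20 were lower, 2 higher and 2 did not pass (median log2 fold change -0.56, adjusted p under 0.05, edgeR). Of 20 genes of the centromere and its loading factors, 10 were lower, 3 higher and 7 did not pass (median -0.15). Of all genes tested 38.5% were lower and 33.75% higher, and of all genes and repeats 36.2% were lower and 36.5% higher. Suv39h1 and Suv39h2, which encode the histone H3 methyltransferases of pericentric heterochromatin, fell by 0.61 and 1.01 on the log2 scale, and Cbx5, which encodes HP1α, fell by 0.38 (edgeR, each past an adjusted p of 0.05). Hmga1 and Hmga2, which encode proteins that bind A/T-rich DNA, fell by 1.47 and 1.17. These 2 and Suv39h2 were the genes past the stricter rule. Cenpb, whose protein binds the minor satellite, fell by 0.43 on the log2 scale. Cenpa, which encodes the centromeric histone, differed by 0.04 (adjusted p = 0.390, edgeR). Whether these genes took part in the changes of GSAT_MM and SYNREP_MM was not tested.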

How the data were processed

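Total RNA was depleted of ribosomal RNA and sequenced as paired ends. Per the study's methods, the authors trimmed reads with Trim Galore, aligned them to mm10 with STAR and counted them with TEtranscripts over GENCODE M9 genes and a modified RepeatMasker annotation. The deposited values are raw counts per gene and repeat family. STAR discards reads with more alignments than its limit, which can lower the counts of long arrays. Libraries held 28591958 to 31464284 counts, of which repeats made up 12.0% to 14.6%. A row without a name (0.00208% to 0.00314%) was left out. Intervals and floors cover counting error only, because reads carried no molecular identifiers and may be PCR copies.

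Counts were tested with edgeR 4.0.16 (filterByExpr, TMM, quasi-likelihood with robust estimation, R 4.3.3) in 17358 genes and repeats together, with Benjamini-Hochberg adjustment over all. Repeats were also fitted alone. Ratios to GSAT_MM or SYNREP_MM, log2 with a pseudocount of 0.5, were tested with limma 3.58.1 over all entries. Alternatives were DESeq2 1.42.0, other scalings, no filter, a pseudocount of 2, each library left out and a replicate block. The scripts were tested on simulated data. Coordinates and sequences were read from GENCODE M21, on the same build.

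Named were all Satellite entries, the 3 nearest entries to GSAT_MM and to SYNREP_MM, the 3 satellite genes with the highest counts and, of the gene lists, those past the stricter rule with Cenpa, Cenpb, Cbx5, Suv39h1 and Suv39h2. Members and lists were chosen with earlier results of these data known. The markers of cell types were added after seeing the data. The chi-square per degree of freedom between replicates was 5.70 (untreated) and 13.1 (genistein), above sampling noise. Such values do not tell separate cultures from technical libraries. Every library was used as its own replicate.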

Additional observations from a re-analysis of the deposited data

How the results depend on the processing

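With 1 library left out, the log2 fold change of GSAT_MM lay between 3.60 and 4.12, and its call was lost without untreated replicate 1 (3.81) and without untreated replicate 2 (3.95). The number of Satellite entries called higher was then 4 to 5. With repeats fitted alone 2 of the 5 were called higher, MMSAT4 (-0.42) and ZP3AR (-0.25) changed direction, IMPB_01 (-0.0067, adjusted p = 0.912, edgeR) was no longer called, and the log2 ratio of the summed Satellite counts went from 0.67 to -0.029, since that scaling sets the bulk of the repeats to 0 (median repeat -0.012, from 0.69). The other 117 values under alternatives kept direction and side of the threshold or, for the number of entries called higher, were 4 or 5. Library totals alone gave the highest median of the repeats, 0.75. The lone library in a fit with 1 left out is assumed to vary like the other group.

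The replicate numbers did not pair the libraries (correlation of same-numbered deviations -0.026). With the replicate block GSAT_MM had 3.88, and no call changed.

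Depth left MurSAT1, CENSAT_MC and (CATTC)n, at 0 to 4 counts, without a test.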
